A study of Bos taurus with 24 samples.

Results

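GREM1, which encodes the secreted bone morphogenetic protein (BMP) antagonist gremlin 1, was followed together with 7 genes that carry or read out BMP signals: the ligand gene BMP2, the receptor gene BMPR2, the signal transducer genes SMAD1, SMAD5 and SMAD9, and the response genes ID1 and ID2. These 8 genes were taken by symbol from a count table of 27607 cow genes, of which 14298 had enough counts to be tested, among them all 8. They had been selected with earlier results of the same libraries in view, so their levels and fold changes are a description and carry no test. The series holds 24 RNA-seq libraries of bovine (Bos taurus) granulosa cells, the somatic cells of the ovarian follicle. Secondary follicles gave 4 libraries of granulosa cells (secondary_GC). Early antral follicles gave 5 of cumulus cells (early_CC) and 5 of mural granulosa cells (early_MGC), and late antral follicles likewise 5 of each (late_CC and late_MGC). Cumulus cells surround the oocyte, and mural cells form the wall of the follicle. The study asked whether granulosa cells of these stages can rebuild complexes with denuded oocytes and regrow the projections that link both cells. Per the labels, total RNA was turned into cDNA with a low-input kit. They give no treatment, genotype, breed or age and do not say whether replicates came from separate animals, so p-values measure only the spread between these samples, which may be technical.

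BMPs bind pairs of type I and type II receptor kinases, which phosphorylate SMAD1, SMAD5 and SMAD9. These enter the nucleus with SMAD4 and switch on genes such as ID1, ID2 and ID3, whose products hold basic helix-loop-helix transcription factors off DNA. Secreted antagonists, among them gremlin 1, noggin and chordin, bind BMPs before they reach a receptor. In mice, GREM1 is a gene that granulosa cells turn on in response to the oocyte's growth factor GDF9.

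Libraries held 8379801 to 31762400 counts. Levels are given as CPM, counts scaled to 1000000 per library, and as TPM, counts per exon length scaled the same way, where genes are compared with each other. The mean correlation of a library with the others of its group was lowest for late_MGC 3 (0.870), late_CC 3 (0.914) and early_MGC 4 (0.920). The follicle-stimulating hormone receptor gene FSHR, which marks granulosa cells, was at 10.6 CPM in late_MGC 3 and at 302 to 381 CPM in the other 4 late_MGC libraries. The summed level of 9 granulosa markers was 756 CPM in late_MGC 3, below its value in the other 23 libraries. GATM made up 618 CPM of that sum and went the other way, being highest there within late_MGC (group median 97.1 CPM). The summed level of 9 theca and stroma markers was 2109 CPM in late_MGC 3, above its value in the others. LUM made up 1621 CPM of the theca and stroma sum. From the same list, INSL3 (1.87 CPM) and TCF21 (0.107 CPM) were lower there than in the other late_MGC libraries. In late_CC 3 the granulosa sum was 2303 CPM, with a group median of 13990 CPM. Much of that gap was INHBA, at 191 CPM in late_CC 3 (group median 8039 CPM). INHA, HSD17B1, AMH, AMHR2 and CYP19A1 were also lowest there within late_CC. FSHR was lowest there too, but still at 301 CPM (group median 378 CPM). FOXL2 (1.38 CPM) was not lowest there, and GATM (176 CPM) was highest there within late_CC. Oocyte markers summed to between 2.22 and 27.2 CPM over all libraries, and OOEP had the highest mean of them in each group. In late_MGC 3, DAZL (2.30 CPM) was above OOEP (1.66 CPM). Results that rest on these libraries are given with and without them.

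GREM1 was highest in granulosa cells of early antral follicles and lowest in cumulus cells of late antral follicles. In secondary_GC its levels were 21.9, 16.6, 22.5 and 19.1 CPM. In early_CC they were 73.0, 57.6, 53.6, 44.6 and 63.9 CPM, and in early_MGC 121, 103, 73.1, 42.8 and 95.9 CPM. In late_CC they were 5.32, 7.76, 9.21, 9.18 and 6.27 CPM, and in late_MGC 12.1, 21.9, 10.3, 19.3 and 16.2 CPM. Every library of both early antral groups lay above every other library of the series, and every late_CC library lay below every library of the other 4 groups. The early_CC and early_MGC ranges overlapped, as did those of late_MGC and secondary_GC. Since these are bulk libraries, fewer cells that express a gene and less RNA of it per cell cannot be told apart.

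**Figure D1:**
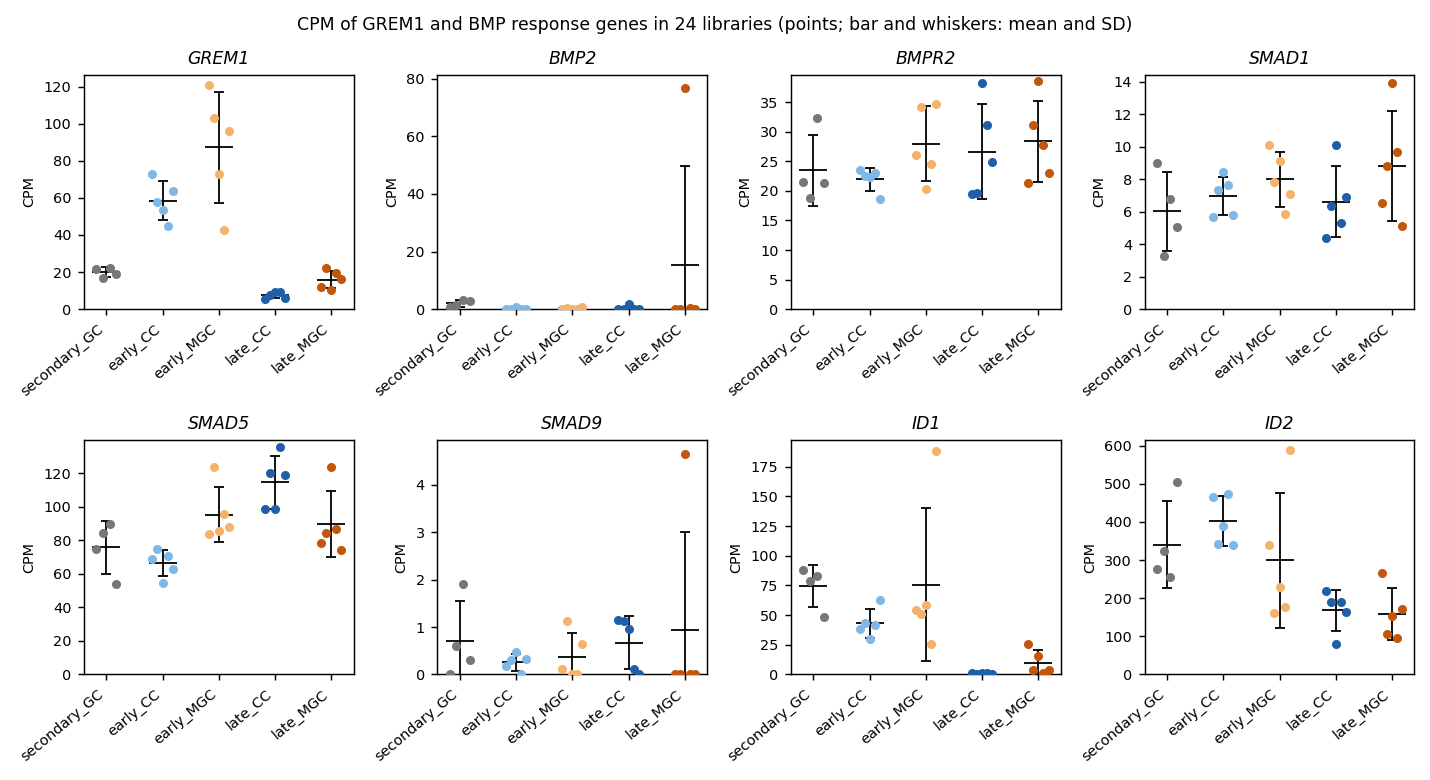
Levels of the 8 genes as CPM (vertical axis, linear and starting at 0) in the 24 libraries, grouped by stage and cell type; points are libraries, the bar is the group mean and whiskers are 1 SD. GREM1 peaks in both early antral groups, ID1 is near 1 CPM in all 5 late_CC libraries, and BMP2 and SMAD9 stand out in 1 library, late_MGC 3.

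Between stages, GREM1 was 4.73-fold higher in early_MGC than in secondary_GC (log2 fold change 2.24 ± 0.25, SE) and 2.99-fold higher in early_CC than in secondary_GC (1.58 ± 0.25). Between antral stages it was 5.01-fold lower in late_MGC than in early_MGC (log2 fold change −2.33 ± 0.23) and 7.73-fold lower in late_CC than in early_CC (−2.95 ± 0.24). Between cell types it was 1.58-fold lower in early_CC than in early_MGC (−0.66 ± 0.22) and 2.44-fold lower in late_CC than in late_MGC (−1.29 ± 0.23). The difference between the 2 stage changes, cumulus minus mural, was −0.62 ± 0.32 on the log2 scale. Without any single library the change ran from −2.47 to −2.16 in mural cells and from −3.06 to −2.80 in cumulus cells. These comparisons share groups with one another, so they are not independent of each other.

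The ID1 levels ordered the groups in another way, with secondary_GC among the high groups. ID1 was at 88.4, 78.5, 83.2 and 48.3 CPM in secondary_GC. It was at 38.2, 43.4, 29.5, 41.7 and 62.5 CPM in early_CC and at 54.5, 50.8, 58.4, 25.4 and 188 CPM in early_MGC. It was at 1.03, 0.590, 0.831, 1.39 and 0.634 CPM in late_CC and at 25.7, 3.81, 15.3, 1.56 and 3.61 CPM in late_MGC. The late_CC libraries all lay below those of the other 4 groups, while late_MGC spread from 1.56 to 25.7 CPM, a range that ended just above the lowest early_MGC library. The late_CC levels rest on 9 to 23 counts per library.

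ID1 was 47.6-fold lower in late_CC than in early_CC (log2 fold change −5.57 ± 0.68, SE) and 6.44-fold lower in late_MGC than in early_MGC (−2.69 ± 0.57). Its level in late_CC was 13.3-fold below that in late_MGC (−3.73 ± 0.65). The change with stage differed between cell types, cumulus minus mural, by −2.88 ± 0.83 on the log2 scale. Library early_MGC 5 alone held 188 CPM, and without it the change in late_MGC against early_MGC was −2.13; without late_MGC 1 it was −3.55. Without late_MGC 1, the log2 fold change in late_CC against late_MGC was −2.88. Early_CC against early_MGC gave −0.85 ± 0.54, and −0.29 without early_MGC 5.

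ID2 was the most abundant of the 8 genes per exon length in all 5 groups, with group means of 129 to 344 TPM. It was at 278, 323, 254 and 505 CPM in secondary_GC. It was at 466, 341, 389, 474 and 338 CPM in early_CC and at 340, 161, 229, 176 and 590 CPM in early_MGC. It was at 218, 189, 78.9, 190 and 164 CPM in late_CC and at 267, 106, 154, 95.8 and 172 CPM in late_MGC. All late_CC libraries were below all early_CC libraries (2.40-fold lower, log2 fold change −1.26 ± 0.32), whereas late_MGC and early_MGC overlapped (−0.74 ± 0.32).

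The make-up of the ID family varied between groups, with ID2 taking its highest share in late cumulus cells. In summed TPM of ID1, ID2, ID3 and ID4, ID1 made up 6.70% ± 2.90 in secondary_GC (SD, n = 4), 5.06% ± 1.57 in early_CC, 7.58% ± 2.14 in early_MGC, 0.342% ± 0.142 in late_CC and 2.20% ± 1.53 in late_MGC (n = 5 each). ID2 made up 37.2% ± 2.6 in secondary_GC, 62.9% ± 7.9 in early_CC, 44.1% ± 7.5 in early_MGC, 81.2% ± 8.4 in late_CC and 58.9% ± 7.2 in late_MGC. The largest share in secondary_GC was that of ID3, at 55.9% ± 3.0.

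ID3 is no member of the 8 and was tested as part of a wider BMP pathway list. That list was also written with earlier results known, so p-values of its genes are not free of that choice. ID3 moved in the same direction as ID1. It had 42.4, 13.6, 21.5, 32.3 and 13.03 CPM in late_CC, against 109, 89.9, 172, 135 and 180 CPM in early_CC. Every late_CC value lay below every early_CC value, and ID3 fell in late_CC against early_CC (log2 fold change −2.47 ± 0.46, SE; edgeR quasi-likelihood test, adjusted p = 0.000159). It was also lower in late_CC than in late_MGC, which averaged 72.7 CPM (−1.78 ± 0.45; edgeR, adjusted p = 0.00315). In late_MGC against early_MGC it fell by 1.58 ± 0.44 on the log2 scale (edgeR, adjusted p = 0.0147), but early_MGC 5 alone held 679 CPM, and without that library the value was −0.91 with adjusted p = 0.0928. ID3 averaged 340 CPM in secondary_GC. ID4 stayed at group means of 0.0415 to 1.09 CPM and was called in none of the 7 tests (edgeR, adjusted p = 0.0608 to 0.921).

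Of the other response genes in the pathway list, ATOH8, a helix-loop-helix gene that BMPs induce, had no count in any late_CC library. A limit of 3 counts over the group puts it at least 29.7-fold lower in late_CC than in late_MGC (mean 1.07 CPM) and at least 6.92-fold lower in late_CC than in early_CC (mean 0.250 CPM); both were called (edgeR, adjusted p = 7.32e-05 and 0.00221). BAMBI, a decoy receptor that BMP signalling induces, was looked at after its values were seen. It had 2.46, 3.29, 79.9, 4.53 and 2.25 CPM in late_CC, against 22.8 to 29.2 CPM in early_CC. In late_MGC it had 5.11, 2.90, 27.7, 2.40 and 4.70 CPM, against 29.8 to 45.0 CPM in early_MGC. Libraries late_CC 3 and late_MGC 3 were the high ones, and BAMBI passed no test with all 24 libraries. With the 3 divergent libraries left out it was called lower in late_CC than in early_CC (log2 fold change −3.06 ± 0.25) and lower in late_MGC than in early_MGC (−2.98 ± 0.25).

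**Figure D2:**
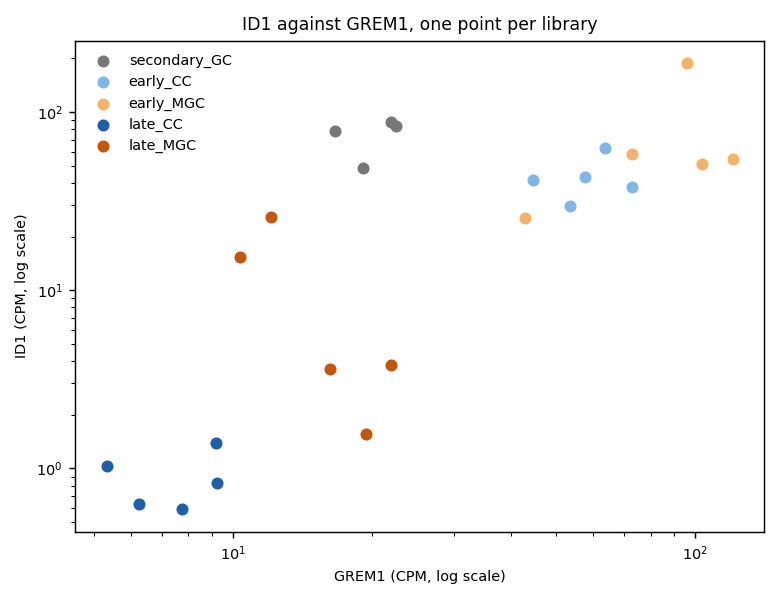
ID1 against GREM1, both as CPM on log axes, with 1 point for each of the 24 libraries coloured by group. Both early antral groups lie above all other libraries in GREM1 and overlap each other on both axes, and late_CC lies lowest on both. Secondary_GC overlaps late_MGC in GREM1 and both early groups in ID1, where late_MGC reaches above the lowest early_MGC library.

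Over the 24 libraries, log2 GREM1 and log2 ID1 had a Pearson correlation of 0.75. After group means were removed it was −0.11, so the positive correlation lay between groups. For ID1 and ID2 the values were 0.71 over all libraries and 0.55 after group means were removed. These correlations describe libraries that share groups and total depth.

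GREM1 was not the only antagonist gene that differed between groups, and the others did not all follow it. By mean TPM over 16 antagonist and modulator genes, GREM1 was at rank 6 in secondary_GC (8.20 TPM), rank 6 in early_CC (23.9 TPM) and rank 2 in early_MGC (34.4 TPM). It was at rank 8 in late_CC (2.92 TPM) and rank 7 in late_MGC (6.20 TPM). The rank in late_MGC leans on late_MGC 3, which raised the means of FSTL3 and CRIM1 above that of GREM1. FSTL3 was at 198 CPM there (group median 3.94 CPM) and CRIM1 at 80.0 CPM (group median 21.9 CPM). Ranks without that library were not computed. Rank 1 in all 5 groups was FST, the activin-binding follistatin, at 972 TPM in secondary_GC to 3978 TPM in late_CC. CHRDL1, a chordin-like BMP binder, was next in 4 of the 5 groups.

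CHRD, which encodes chordin, rose in late cumulus cells while GREM1 was low there. Its levels were 35.5, 55.7, 12.04, 61.2 and 47.8 CPM in late_CC, against 10.3, 12.5, 8.13, 8.32 and 4.98 CPM in early_CC. The lowest late_CC value, that of late_CC 3, lay inside the early_CC range. The log2 fold change was 2.24 ± 0.56 (SE; edgeR, adjusted p = 0.00258) in late_CC against early_CC and 2.25 ± 0.57 (edgeR, adjusted p = 0.00308) in late_CC against late_MGC.

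TWSG1, twisted gastrulation, binds BMPs together with chordin. It was at 107 to 258 CPM in late_CC, with 4 of 5 libraries at 249 CPM or more, against 48.2 to 70.8 CPM in late_MGC. It was higher in late_CC than in late_MGC by 1.66 ± 0.28 on the log2 scale (edgeR, adjusted p = 3.92e-05). Its stage change was larger in cumulus than in mural cells by 1.17 ± 0.38 (edgeR, adjusted p = 0.0222), a call that ended without early_MGC 4 (adjusted p = 0.0566). CHRDL2, another chordin-like gene, fell in both late groups. It had no count in any late_CC library and 1.71 to 9.19 CPM in early_CC, which makes it at least 137-fold lower in late_CC (edgeR, adjusted p = 1.25e-05). In mural cells it was at 0 to 0.142 CPM in late_MGC and 0 to 8.51 CPM in early_MGC, with both ranges reaching 0, and fell by 6.36 ± 0.99 on the log2 scale (edgeR, adjusted p = 0.000157).

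NOG, which encodes noggin, averaged 0.0613 CPM in late_MGC and 1.29 CPM in early_MGC and fell by 4.08 ± 0.99 on the log2 scale (edgeR, adjusted p = 0.00512). It had 0, 0.295, 2.49, 0.242 and 0.282 CPM in late_CC, against means of 1.18 CPM in early_CC and 1.63 CPM in secondary_GC. NOG was called higher in late_CC than in late_MGC (log2 fold change 3.04 ± 0.98; edgeR, adjusted p = 0.0156), which rested on late_CC 3: without it the value was 1.29 and adjusted p = 0.258. The difference of its stage changes between cell types was 3.31 ± 1.26 (edgeR, adjusted p = 0.0469). That call was lost without any of 10 single libraries: late_CC 3, late_MGC 2, 3 and 5, early_CC 1, 3, 4 and 5, and early_MGC 4 and 5 (adjusted p = 0.0596 to 0.296).

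**Figure D3:**
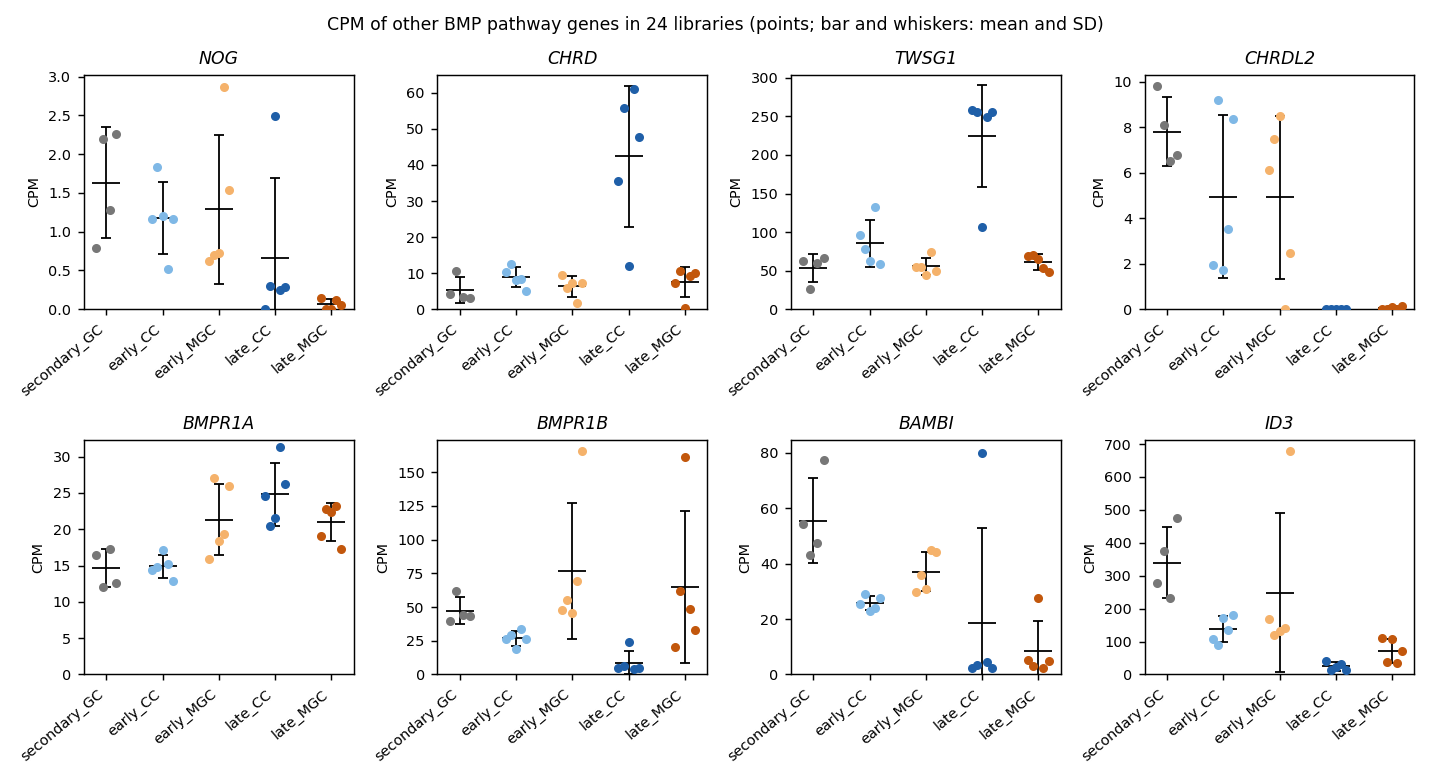
Levels of 8 other BMP pathway genes as CPM (vertical axis, linear and starting at 0) in the 24 libraries by group; points are libraries, the bar is the group mean and whiskers are 1 SD. CHRD and TWSG1 are high in 4 of 5 late_CC libraries, CHRDL2 is at 0 in all 5, and BAMBI is high in only 1 library each of late_CC and late_MGC.

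Of the ligand genes, BMP2 was below 1 CPM in the antral groups except in late_MGC 3 and, at a low level, in late_CC 3. It had 0.790, 1.40, 3.05 and 2.82 CPM in secondary_GC. It had 0, 0.102, 0.727, 0 and 0.0803 CPM in early_CC and 0.123, 0.560, 0.120, 0 and 0.653 CPM in early_MGC. It had 0, 0, 1.66, 0 and 0 CPM in late_CC, and 0, 0.121, 76.7, 0.240 and 0.190 CPM in late_MGC. All secondary_GC libraries lay above all early_CC and early_MGC libraries. Library late_MGC 3, which holds the 76.7 CPM, is the one with low FSHR and a high sum of theca and stroma markers, though not of each marker. Their part in the result was not tested. With it, the fitted log2 fold change was 5.62 ± 1.88 in late_MGC against early_MGC and −5.58 ± 1.87 in late_CC against late_MGC. Without it the signs turned, to −0.98 and 1.12.

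Library late_MGC 3 was also high in BMP4, another BMP ligand, in BMPER, a BMP-binding endothelial regulator, and in FSTL3, a follistatin-like binder. BMP4 was at 44.0 CPM there and at 0.190 to 0.361 CPM in the other late_MGC libraries. The BMP4 difference in late_CC against late_MGC (log2 fold change −4.60 ± 1.40; edgeR, adjusted p = 0.0124) was 0.27 without that library (adjusted p = 0.833). BMPER was at 28.3 CPM in late_MGC 3, at 0 to 0.240 CPM in the other 4 late_MGC libraries and at 0 in all early_MGC libraries. Its group mean was at least 148-fold higher in late_MGC than in early_MGC (edgeR, adjusted p = 0.0206), and the call was lost without late_MGC 3 (adjusted p = 0.0968). BMP4 averaged 2.05 CPM in secondary_GC, 0.971 CPM in early_CC, 1.97 CPM in early_MGC and 0.382 CPM in late_CC.

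The oocyte's own ligand genes were at trace levels. BMP15 had no count in any of the 24 libraries, a limit of 0.0244 to 0.0402 CPM per group. GDF9 averaged 0.223 to 0.397 CPM and BMP6, a ligand gene of oocytes and granulosa cells, 0 to 0.111 CPM. Of these 3 genes GDF9 alone passed the filter on low counts, and it was called in none of the 7 tests (edgeR, adjusted p = 0.753 to 0.958).

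BMPR2, the type II BMP receptor gene, was at a steady level. It had 21.5, 18.8, 32.4 and 21.3 CPM in secondary_GC. It had 23.5, 22.6, 22.3, 22.97 and 18.6 CPM in early_CC and 26.1, 34.3, 20.3, 24.6 and 34.7 CPM in early_MGC. It had 19.5, 19.6, 38.2, 31.1 and 24.9 CPM in late_CC and 21.3, 31.1, 38.6, 27.8 and 23.01 CPM in late_MGC. Each pair of groups next to each other in the order of means overlapped, and group means spanned only 21.99 to 28.4 CPM. Its 6 log2 fold changes ran from −0.44 ± 0.20 in early_CC against early_MGC to 0.38 ± 0.22 in early_MGC against secondary_GC.

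The type I BMP receptor genes BMPR1A and BMPR1B were called lower in cumulus than in mural cells of early follicles, for BMPR1B in a call that depended on single libraries. BMPR1A had 12.9 to 17.2 CPM in early_CC, against 15.9 to 26.996 CPM in early_MGC (log2 fold change −0.61 ± 0.17; edgeR, adjusted p = 0.0162). It was higher in late_CC, at 20.4 to 31.4 CPM, than in early_CC, with no overlap (0.73 ± 0.17; edgeR, adjusted p = 0.000883). It averaged 20.99 CPM in late_MGC and 14.6 CPM in secondary_GC. It rose in early_MGC against secondary_GC (0.67 ± 0.18; edgeR, adjusted p = 0.0198), a call lost without secondary_GC 2 or secondary_GC 4 (adjusted p = 0.0607 to 0.0813). Its stage change differed between cell types by 0.65 ± 0.23 (edgeR, adjusted p = 0.0358). That call was lost without any of 8 libraries: late_CC 4 and 5, late_MGC 5, early_CC 2 and 5, and early_MGC 2, 4 and 5 (adjusted p = 0.0528 to 0.0721).

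BMPR1B, the type I receptor gene known for its effect on ovulation rate in sheep, had 4.58, 6.49, 24.2, 3.75 and 4.58 CPM in late_CC. It had 26.2, 29.2, 18.7, 34.0 and 26.3 CPM in early_CC, so that 4 of 5 late_CC libraries lay below them all and late_CC 3 lay among them. The log2 fold change was −1.58 ± 0.52 (edgeR, adjusted p = 0.0169) with all libraries, −2.48 without late_CC 3, and lost its call without late_CC 1 (adjusted p = 0.05005). Against late_MGC, which had 20.1, 61.6, 161, 48.4 and 33.0 CPM, late_CC was lower (log2 fold change −2.99 ± 0.54; edgeR, adjusted p = 0.000164; −2.39 without late_MGC 3 and −3.89 without late_CC 3). Early_CC was lower than early_MGC, at 45.5 to 166 CPM (−1.58 ± 0.51; edgeR, adjusted p = 0.0435). That call was lost without any of the 5 early_CC libraries or without early_MGC 4 or 5 (adjusted p = 0.0589 to 0.142). BMPR1B averaged 47.2 CPM in secondary_GC.

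ACVR1, a type I receptor gene shared by BMPs and activins, averaged 2.31 CPM in secondary_GC, 2.63 CPM in early_CC, 2.07 CPM in early_MGC, 4.69 CPM in late_CC and 7.64 CPM in late_MGC. It rose in late_MGC against early_MGC (log2 fold change 1.94 ± 0.45; edgeR, adjusted p = 0.00333), with late_MGC 3 at 20.997 CPM and the other late_MGC libraries at 2.57 to 5.65 CPM; without that library the value was 1.202. AMHR2, the receptor gene of anti-Müllerian hormone, fell in both cell types. It averaged 0.686 CPM in late_MGC against 7.31 CPM in early_MGC (−3.26 ± 0.46; edgeR, adjusted p = 2.14e-05) and 1.29 CPM in late_CC against 6.85 CPM in early_CC (−2.39 ± 0.44; edgeR, adjusted p = 0.000107). ENG, the co-receptor endoglin, fell by 2.69 ± 0.45 in late_MGC against early_MGC (edgeR, adjusted p = 0.00016) and by 1.93 ± 0.43 in late_CC against early_CC (edgeR, adjusted p = 0.00076). ACVRL1, a type I receptor gene, fell by 3.51 ± 0.82 in late_MGC against early_MGC (edgeR, adjusted p = 0.0037).

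ENG was also lower in early_MGC than in secondary_GC (log2 fold change −1.41 ± 0.43; edgeR, adjusted p = 0.0381), a call lost without any of 8 libraries (adjusted p = 0.0522 to 0.131): all 5 early_MGC libraries and secondary_GC 1, 2 and 4. ENG and ACVRL1 are best known from blood vessels. The sum of 8 endothelial markers was 25.6 CPM in late_MGC 3 and 0.765 to 2.78 CPM in the other late_MGC libraries, against 5.06 to 10.4 CPM in early_MGC. CLDN5 made up 16.7 CPM of the sum in late_MGC 3, VWF 4.07 CPM and TEK 3.11 CPM, while PECAM1 and EMCN had no count there. In cumulus cells this sum was 3.24 to 4.96 CPM in late_CC and 1.15 to 4.82 CPM in early_CC. Its part in these changes was not tested. TGFBR3, the co-receptor betaglycan, averaged 9.41 CPM in secondary_GC, 7.69 CPM in early_CC, 25.5 CPM in early_MGC, 26.5 CPM in late_CC and 22.7 CPM in late_MGC. It was lower in early_CC than in early_MGC (−1.78 ± 0.38; edgeR, adjusted p = 0.00388) and rose in late_CC against early_CC (1.81 ± 0.38; edgeR, adjusted p = 0.000499). Its stage change differed between cell types by 1.83 ± 0.53 (edgeR, adjusted p = 0.0105). It rose in early_MGC against secondary_GC (1.52 ± 0.41; edgeR, adjusted p = 0.0235), a call lost without early_MGC 5 or secondary_GC 1, 2 or 4 (adjusted p = 0.0633 to 0.0921). NEO1, the neogenin co-receptor gene, was lower in early_CC than in early_MGC (−0.61 ± 0.20; edgeR, adjusted p = 0.0406), a call lost without early_CC 1, 3, 4 or 5 or early_MGC 2, 4 or 5 (adjusted p = 0.0539 to 0.109). Its stage change differed between cell types by 1.21 ± 0.28 (edgeR, adjusted p = 0.00176).

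SMAD5 was the main BMP-responsive SMAD transcript. Of the summed TPM of SMAD1, SMAD5 and SMAD9, SMAD5 made up 85.5% ± 4.2 in secondary_GC (SD, n = 4), 83.2% ± 3.7 in early_CC, 85.9% ± 3.2 in early_MGC, 89.0% ± 4.0 in late_CC and 84.0% ± 4.9 in late_MGC (n = 5 each). SMAD5 had 75.0, 84.3, 90.0 and 54.0 CPM in secondary_GC. It had 68.9, 74.9, 54.8, 70.8 and 63.2 CPM in early_CC and 83.9, 124, 85.5, 95.6 and 88.2 CPM in early_MGC. It had 98.8, 120, 98.6, 136 and 119 CPM in late_CC and 78.7, 84.2, 124, 86.7 and 74.5 CPM in late_MGC.

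Every late_CC library lay above every early_CC library in SMAD5, 1.72-fold on average (log2 fold change 0.78 ± 0.17), and every early_CC library lay below every early_MGC library (−0.64 ± 0.16). Late_MGC and early_MGC overlapped (−0.01 ± 0.16). The stage change differed between cell types by 0.80 ± 0.23. The span of SMAD5 overlaps smaller annotated genes near its start, and counting ignored strand, so part of its reads cannot be assigned with certainty.

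SMAD1 was low in all groups, with 3.30 to 8.98 CPM in secondary_GC, 5.70 to 8.43 CPM in early_CC, 5.85 to 10.1 CPM in early_MGC, 4.41 to 10.1 CPM in late_CC and 5.12 to 13.9 CPM in late_MGC. These ranges all overlapped, and its 6 log2 fold changes lay between −0.58 ± 0.28 (late_CC against late_MGC) and 0.56 ± 0.31 (early_MGC against secondary_GC). SMAD9 was near the limit of detection, at 0 to 1.91 CPM in 23 libraries. Library late_MGC 3 had 4.66 CPM of SMAD9, and the other 4 late_MGC libraries had no count.

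**Figure D4:**
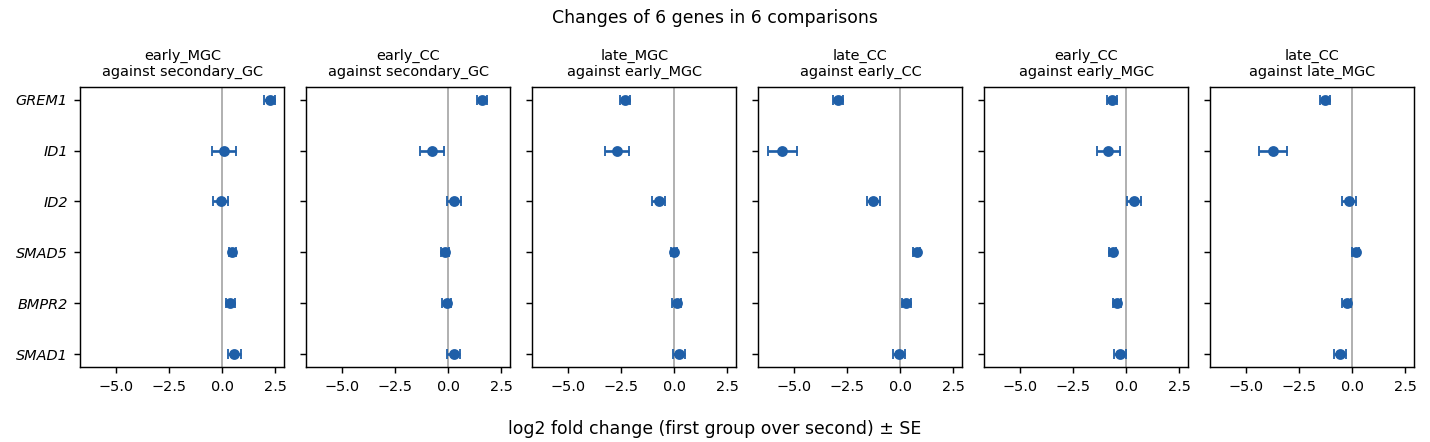
Log2 fold changes (horizontal axis, first-named group over the second) with SE bars for 6 of the genes in 6 comparisons. GREM1 is positive in both comparisons with secondary_GC and negative in the other 4, ID1 is most negative in late_CC against early_CC (−5.57), and BMPR2 and SMAD1 stay between −0.58 and 0.56.

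SMAD4, the common partner of the receptor-activated SMADs, averaged 139 CPM in secondary_GC, 194 CPM in early_CC, 160 CPM in early_MGC, 152 CPM in late_CC and 211 CPM in late_MGC. Its stage change differed between cell types by −0.85 ± 0.33 (edgeR, adjusted p = 0.0482), a call lost without any of 14 single libraries: late_CC 1, 2, 4 and 5, late_MGC 1, 2, 4 and 5, early_CC 1, 3 and 4, and early_MGC 2, 3 and 5 (adjusted p = 0.0503 to 0.0931). It was also lost with RLE size factors (adjusted p = 0.0638), with only the compared groups (0.0633) and with DESeq2 (0.0552). SMAD6, an inhibitory SMAD gene, averaged 0.0277 to 0.331 CPM. SMAD7, the other inhibitory SMAD gene, was at 14.3 CPM in late_MGC 3, 4.50 CPM in late_CC 3 and at most 0.850 CPM in the other 22 libraries.

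Among the SMAD corepressor and partner genes, SKIL, a corepressor of SMADs, was at 28.8 to 52.4 CPM in late_CC, against 7.997 to 15.4 CPM in early_CC, and rose (log2 fold change 1.84 ± 0.30; edgeR, adjusted p = 2.49e-05). Its stage change differed between cell types by 2.77 ± 0.41 (edgeR, adjusted p = 3.39e-05). It was lower in early_CC than in early_MGC (−1.26 ± 0.29; edgeR, adjusted p = 0.00592) and lower in early_CC than in secondary_GC (−1.47 ± 0.31; edgeR, adjusted p = 0.00957); the second call was lost without secondary_GC 2 (adjusted p = 0.0807). ZNF423, a zinc-finger partner of BMP SMADs, averaged 1.09 CPM in late_CC against 0.0650 CPM in late_MGC (3.72 ± 1.08; edgeR, adjusted p = 0.00775). The interaction value of ATOH8, −5.23 (edgeR, adjusted p = 0.0102), depends on the prior count because late_CC held no count.

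Read against all genes, the 8 genes were called as follows at an edgeR adjusted p under 0.05, in comparisons from which they had been chosen, and nothing is read from these counts. In early_MGC against secondary_GC and in early_CC against secondary_GC, 1 of 8 was called (GREM1), beside 9.1% and 1.99% of all tested genes. In late_MGC against early_MGC it was 3 of 8 (GREM1, ID1 and BMP2) beside 19.1%, and in late_CC against early_CC 4 of 8 (GREM1, ID1, ID2 and SMAD5) beside 45.2%. In early_CC against early_MGC it was 2 of 8 (GREM1 and SMAD5) beside 13.1%. In late_CC against late_MGC it was 3 of 8 (GREM1, ID1 and BMP2) beside 39.7%, and for the difference of stage changes 2 of 8 (ID1 and SMAD5) beside 31.4%. Without the 3 libraries that stand apart, 1, 2, 3, 5, 2, 3 and 4 of 8 were called in these 7 comparisons, beside 13.6%, 9.2%, 23.8%, 50%, 17.5%, 42.1% and 34.9% of all tested genes in the same order. GREM1 was among them in every one, also for the difference of stage changes, where it was not called with all libraries. It was chosen from these data, so nothing is read from this either.

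Groups that did not overlap at all were counted in the same way. In early_MGC against secondary_GC and in early_CC against secondary_GC, GREM1 lay wholly above and BMP2 wholly below, beside 10.1% and 10.3% of tested genes without overlap. In late_MGC against early_MGC only GREM1 was without overlap among the 8 (10.6% of all genes). In late_CC against early_CC, GREM1, ID1 and ID2 lay wholly below and SMAD5 wholly above (35.4%). In early_CC against early_MGC it was SMAD5 alone (16%), and in late_CC against late_MGC GREM1 and ID1 (22.7%).

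The wider BMP pathway was described with a list of 71 genes beside the 8, of which 69 had a symbol in the table and 42 could be tested. It too was written with earlier results of these data known. In early_MGC against secondary_GC 3 of 42 passed (2 higher, 1 lower), and in early_CC against secondary_GC 1 of 42 (lower). In late_MGC against early_MGC 10 passed (3 higher, 7 lower), and in late_CC against early_CC 15 (9 higher, 6 lower), 7 of them among the 11 receptors and co-receptors tested. In early_CC against early_MGC 5 passed, all lower, and in late_CC against late_MGC 12 (7 higher, 5 lower). The difference of stage changes passed for 8 genes. As shares of 42 these are 7.14%, 2.38%, 23.8%, 35.7%, 11.9%, 28.6% and 19.05%, beside 9.1%, 1.99%, 19.1%, 45.2%, 13.1%, 39.7% and 31.4% of all genes in the same order. The median log2 fold change of the 42 genes was 0.34 in late_CC against early_CC and −0.01 in late_MGC against early_MGC, with genes at 0 in a group set at their bound, beside 0.04 and 0.05 over all tested genes.

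Several of these counts depended on single libraries. In early_MGC against secondary_GC, 1 list gene passed without early_MGC 5, secondary_GC 1 or secondary_GC 2 and 0 without secondary_GC 4. In early_CC against secondary_GC, 0 passed without secondary_GC 2. In late_MGC against early_MGC, 16 passed without late_MGC 3. In early_CC against early_MGC, 3 passed without early_CC 1, 3, 4 or 5 or early_MGC 4 or 5, and 9 without early_MGC 3. For the difference of stage changes, 5 passed without late_MGC 5. Without the 3 libraries that stand apart the 7 counts were 5, 5, 16, 21, 9, 14 and 10 of 42, beside 13.6%, 9.2%, 23.8%, 50%, 17.5%, 42.1% and 34.9% of all genes tested without them. FST, looked at after its values were seen, was at 83.0 CPM in late_MGC 3 and at 5008 to 6564 CPM in the other late_MGC libraries, and without the 3 libraries it was higher in late_MGC than in early_MGC by 1.39 ± 0.20 and in late_CC than in early_CC by 1.21 ± 0.18 on the log2 scale.

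Among 11308 other genes that averaged 1 CPM or more, those whose log2 levels followed GREM1 most closely over the 24 libraries were MORC4 and GRB7 (Pearson correlation 0.875 each), GJA5 (0.874), ARHGAP29 (0.871) and NUDT11 (0.868). ARHGAP29, for instance, averaged 78.5 CPM in secondary_GC, 93.1 CPM in early_CC, 177 CPM in early_MGC, 16.1 CPM in late_CC and 31.8 CPM in late_MGC. For ID1 they were NKIRAS1 and FOSB (0.945 each), NFKBIZ (0.943), ARMH4 (0.938) and NUPR2 (0.935). FOSB, an immediate early transcription factor gene, averaged 250 CPM in secondary_GC, 187 CPM in early_CC, 432 CPM in early_MGC, 7.07 CPM in late_CC and 38.0 CPM in late_MGC. After group means were removed, the correlations of the 5 genes with ID1 ran from 0.35 (ARMH4) to 0.88 (FOSB). Those of the 5 genes with GREM1 ran from 0.13 to 0.54. By Spearman correlation, 2 of the 5 genes for GREM1 and 3 of the 5 for ID1 were again among the first 5.

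By position on the ARS-UCD1.2 assembly, GREM1 (ENSBTAG00000050495) lies on the minus strand of chromosome 10 at 29964364-29978686. ID1 (ENSBTAG00000016169) lies on chromosome 13 at 61179938-61182003, and BMP2 (ENSBTAG00000005111) on the same chromosome at 49151441-49185579. ID2 (ENSBTAG00000021187) lies on chromosome 11 at 88604880-88607401 and BMPR2 (ENSBTAG00000006420) on chromosome 2 at 90864689-91017391. SMAD1 (ENSBTAG00000002835) lies on chromosome 17 at 12740787-12823604, SMAD5 (ENSBTAG00000055062) on chromosome 7 at 47561017-47623314 and SMAD9 (ENSBTAG00000007589) on chromosome 12 at 24731844-24795963. Values are sums over the exons of each gene.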

How the data were processed

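The deposited table holds raw counts per gene, made by the authors with featureCounts 2.0.0 on the exons of Ensembl release 105 for ARS-UCD1.2, per the file headers, with no strand option. The submitters' processing notes also name fastp 0.20.0, HISAT2 2.1.0, SAMtools 1.10 and the build bosTau9. Symbols were assigned by position from the RefSeq table of ARS-UCD2.0: of 12219 genes that averaged 1 CPM or more, 11309 matched (reciprocal best overlap of at least 0.5 of the union, or the sole named protein-coding gene with at least 0.8 of the shorter span). After a shift of 1000000 bases, 1004 matched. Names at such loci are therefore likely but not certain. The rule of the sole named gene gave BMP2 its name and, in the pathway list, NOG, BMPR1A, BMPR1B, SMURF2, ID3 and ID4. The 5 late_MGC and 4 secondary_GC columns map to a group but not to a sample and are numbered by column order; 1 column of undetermined reads (41567882 counts) was not used. The labels do not say whether library numbers pair samples across groups, and the main fit used no pairing.

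All 24 libraries entered 1 quasi-likelihood fit in edgeR 4.0.16 (R 4.3.3) with TMM scaling and its filter on low counts. P-values were adjusted by Benjamini-Hochberg over 14298 genes and called under 0.05; SEs are those implied by the F statistic. The step was tested on simulated data. DESeq2 1.42.0, other scalings and left-out libraries are alternatives. Where a group held no count, folds are bounds from 3 counts over the group. Limits cover counting error only. The 8 genes and the lists were chosen with earlier results of these data known. Named were the 8 genes, 13 further pathway genes, up to 8 called list genes with the largest changes per comparison, and the 5 genes most like GREM1 and ID1. Promoter motifs were not analysed here.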

Additional observations from a re-analysis of the deposited data

Results flagged for a closer look

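In 98 groups of 4 or 5 values (8 genes and 13 further pathway genes by group), 23 values lay far from the others of their group. The measure was the gap to the nearest library relative to the range. Chance gives about 1 in 20 only for normally distributed values. A group with counts in 1 library alone is flagged by construction, so the number of flags cannot be read against that rate. Of the 23 values, 7 were of late_MGC 3, 6 of late_CC 3 and 3 of early_MGC 5. Their causes were not tested.

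Library late_MGC 3 was far from its group in BMP2 (76.7 CPM), BMP4 (44.0 CPM), ACVR1 (21 CPM), SMAD5 (124 CPM), SMAD7 (14.3 CPM), SMAD9 (4.66 CPM) and ID4 (1.07 CPM). Library late_CC 3 was far from its group in BMPR1B (24.2 CPM), SMAD7 (4.50 CPM), NOG (2.49 CPM), BMP2 (1.66 CPM), ID4 (0.208 CPM) and SMAD6 (0.138 CPM). Library early_MGC 5 was far from its group in ID1 (188 CPM), ID3 (679 CPM) and BMPR1B (166 CPM). In early_CC, library 1 stood apart in BMP6 (0.157 CPM), library 2 in BMP4 (3.21 CPM), library 3 in BMP2 (0.727 CPM) and library 5 in BMPR2 (18.6 CPM, the lowest). In secondary_GC, library 1 stood apart in BMP6 (0.444 CPM), SMAD6 (0.296 CPM) and SMAD7 (0.0987 CPM), where the other 3 had no count. Values of BMP6, SMAD6 and ID4 rest on few counts.

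The change from early to late follicles differed between cumulus and mural cells, by the test of the difference itself, for NOG (3.31), SKIL (2.77), TGFBR3 (1.83), NEO1 (1.21), TWSG1 (1.17), BMPR1A (0.65), SMAD4 (−0.85) and ATOH8 (−5.23), all on the log2 scale as cumulus minus mural. These 8 calls were not equally stable. Leaving out each of 20 libraries in turn ended the call of SMAD4 in 14 cases, of NOG in 10, of BMPR1A in 8 and of TWSG1 in 1, and that of SKIL, TGFBR3, NEO1 and ATOH8 in 0. SMAD4 also lost its call with RLE size factors (edgeR, adjusted p = 0.0638), with only the compared groups (0.0633) and with DESeq2 (0.0552). NOG lost it with no filter (edgeR, adjusted p = 0.0659), with only the compared groups (0.0523) and without the 3 libraries that stand apart (0.671). BMPR1A lost it with no filter (edgeR, adjusted p = 0.135) and without those 3 libraries (0.0604). The value of ATOH8 depends on the prior count, since late_CC held no count.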

How the results depend on the processing

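Of 54 calls of list genes, 34 were kept when each library was left out in turn, and 33 in every setting tried. BMP2 reversed without late_MGC 3, to −0.98 in late_MGC against early_MGC and 1.12 in late_CC against late_MGC, and without the 3 libraries that stand apart to −1.22 in the first; BMP4 reversed to 0.27 in late_CC against late_MGC without late_MGC 3. With single libraries left out these values ran from −0.98 to 6.09, from −11.24 to 1.12 and, for BMP4, from −5.13 to 0.27.

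Called genes numbered 1301 in early_MGC against secondary_GC (516 to 1524 with single libraries left out) and 285 in early_CC against secondary_GC (150 to 358; 964 with only the compared groups, 729 with DESeq2, 1304 without the 3 libraries). They numbered 2725 in late_MGC against early_MGC (2093 to 3396; 1612 with only the compared groups), 1871 in early_CC against early_MGC (1222 to 1761; 3035 with only the compared groups), 6457 in late_CC against early_CC (5727 to 6496), 5673 in late_CC against late_MGC (4857 to 5891) and 4486 for the difference of stage changes (3826 to 5138).

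Pathway genes called numbered 3 in early_MGC against secondary_GC (0 to 4 with single libraries left out; 5 with DESeq2 and 5 without the 3 libraries) and 1 in early_CC against secondary_GC (0 to 1; 7 with only the compared groups, 2 with DESeq2, 5 without the 3). They numbered 10 in late_MGC against early_MGC (8 to 16; 16 without the 3) and 5 in early_CC against early_MGC (3 to 9; 3 with no filter, 13 with only the compared groups, 9 with DESeq2, 9 without the 3). They numbered 15 in late_CC against early_CC (13 to 17), 12 in late_CC against late_MGC (10 to 14; 7 with only the compared groups) and 8 for the difference of stage changes (5 to 10). The cause was not tested.

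Whether library numbers pair samples is not known. Same-numbered libraries of late_CC and early_CC, and of early_CC and early_MGC, correlated from −0.10 to 0.24 after group means. So few pairs can neither show nor exclude pairing, and late_MGC and secondary_GC, numbered by column order, could not be checked. With the number as a replicate block over late_CC, early_CC and early_MGC, 9 pathway genes were called in early_CC against early_MGC, against 10 in the same groups without the block, an alternative added after the data were seen.

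Low depth limits BMP6, BMP15, GDF9, SMAD6, SMAD9, ID4 and NOG, whose group means rest on few counts, and ID1 in late_CC.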
